A study of Homo sapiens with 6 samples.

Results

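ATF4 and 9 genes known as its targets in amino acid supply and stress were followed in MDA-MB-231 cells that lack the kinases MRCKα and MRCKβ. The genes are ATF4, DDIT3, CEBPB, TRIB3, CHAC1, SESN2, VLDLR, ASNS, PSAT1 and PHGDH. They were taken by symbol, and all 10 were found among the 17064 genes of the expression table. Each of the 10 passed the filter on low counts that left 13123 genes for testing. MDA-MB-231 is a human breast cancer line grown from a metastatic site. MRCKα, encoded by CDC42BPA, and MRCKβ, encoded by CDC42BPB, are kinases that act downstream of CDC42 on actomyosin, and the study compared the RNA of cells without either or both of them. The RNA came from subconfluent cultures and gave 6 libraries. The 2 vector libraries came from separate transductions with the empty lentiCRISPRv2 vector. MRCKα KO (CDC42BPA knockout) and MRCKβ KO (CDC42BPB knockout) have 1 library each, and the CDC42BPA/CDC42BPB double knockout (DKO) has 2 libraries made with different guide sets. All libraries come from transduced cells that were selected with antibiotic and not cloned, so each is the average of a pool. Which guides belong to which library is not given in the sources used here. The libraries held between 10349898 and 10657857 expected counts.

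ATF4 is a transcription factor of the bZIP family at the centre of the integrated stress response. Kinases that sense unfolded protein, missing amino acids, viral RNA or haem deficiency phosphorylate the translation factor eIF2α, which lowers protein synthesis but favours translation of the ATF4 mRNA through its upstream open reading frames. ATF4 then pairs with C/EBP family members on composite C/EBP-ATF elements and raises genes for amino acid synthesis, uptake and tRNA charging, together with stress factors such as DDIT3 and TRIB3 that shape or end the response. Because control of ATF4 is largely translational, the level of its mRNA is not a measure of the protein.

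The core of the composite element, TGATGNAA, was searched on both strands of the RefSeq promoter windows of build GRCh38.p14, which run from 250 bases before to 50 bases after each gene start. It was found in 1217 of 27305 genes (4.46%) and in 2.88% of the tested genes with a window. Of the 10 genes, ASNS and CHAC1 held it. Both windows are shown as the gene reads, 5′ to 3′, with the match in capitals. The ASNS stretch is chr7:97872443-97872502 on the minus strand, where the match starts 68 bases before the gene start, and the CHAC1 stretch is chr15:40953236-40953295 on the plus strand, where it starts 209 bases before. Both distances are from the RefSeq start. The GENCODE positions given below for these genes begin further upstream, and both stretches lie within them.
ASNS: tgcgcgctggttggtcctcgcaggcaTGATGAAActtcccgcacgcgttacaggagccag
CHAC1: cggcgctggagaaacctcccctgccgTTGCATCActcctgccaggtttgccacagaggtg

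Matches were most frequent in 2 other groups of the pathway. The enzymes that charge tRNAs with amino acids held it in 7 of 10 windows and the amino acid transporters in 5 of 9. It was found in 3 of 7 bZIP partners and feedback factors, 2 of 8 mTORC1 brakes and other stress targets and 1 of 7 genes of amino acid synthesis. The synthesis match is that of ASNS and 1 of the 2 stress target matches is that of CHAC1, both given above. It was also found in 1 of 5 eIF2α kinases and phosphatase subunits and in 1 of 15 genes of the chaperone branch, the group for comparison. The 7 synthetase matches are shown because this group held the motif in the largest share of its windows. Each stretch of 30 bases is written on the strand that reads TGATGNAA, with the match in capitals. The stretches are chr16:70289675-70289704 (plus strand) for AARS, chr7:30594834-30594863 (minus) for GARS and chr9:92293692-92293721 (plus) for IARS. They are chr11:3057407-3057436 (plus) for CARS, chr12:57488053-57488082 (minus) for MARS, chr18:57621804-57621833 (minus) for NARS and chr5:33440956-33440985 (minus) for TARS.
AARS: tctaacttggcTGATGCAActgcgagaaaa
GARS: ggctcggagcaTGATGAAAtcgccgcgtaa
IARS: gcgcacggaggTGATGCAAcgcgctgaaaa
CARS: ttcctagaatcTGATGCAAccgccgccccg
MARS: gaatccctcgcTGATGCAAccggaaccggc
NARS: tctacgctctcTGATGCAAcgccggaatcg
TARS: gctggaccagcTGATGCAAtcgaaaggcgc
A match is a description of letters, and binding of ATF4 was not measured. A window without a match says only that these letters are not in it.

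The targeted genes were still transcribed in the knockouts. CDC42BPA had an FPKM (a level corrected for transcript length and library size) of 36.4 and 23.3 in vector 1 and vector 2, 28.3 and 26.1 in DKO 1 and DKO 2, 34.9 in MRCKβ KO and 29.4 in MRCKα KO. CDC42BPB had 30.3 and 29.1 in vector, 23.4 and 23.5 in DKO, 25.7 in MRCKβ KO and 27.3 in MRCKα KO. CDC42BPA overlapped between the groups, whereas CDC42BPB was lower in both DKO libraries than in both vector libraries (log2 fold change -0.37, SE 0.11, unadjusted p = 0.0132 and adjusted p = 1.0 by edgeR). Guides that cut coding sequence need not remove the RNA, so these levels do not check the genotype labels. The study judged the deletion in these cells by protein and reported a very high efficiency. The cells are labelled epithelial, and KRT8 reached an FPKM of 138 to 220. The epithelial adhesion genes were low in the same libraries, with EPCAM at 0.73 to 2.62 and CDH1 at 0.25 to 0.64, while VIM, a mesenchymal filament, stood at 1532 to 2052. Of the luminal markers, ERBB2 reached 13.2 to 16.2 and PGR did not exceed 0.03. Of the immune markers, CD68 was at 66.7 to 98.5, PTPRC at 0.28 to 1.24, CD14 at 0.13 to 1.23 and CD3E at 0 to 0.06.

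By level, the 10 genes spanned a wide range. Mean FPKM over the 6 libraries was 182 for ATF4, 67.1 for PSAT1, 34.1 for DDIT3, 32.9 for ASNS and 29.1 for CEBPB. It was 18.4 for PHGDH, 16.5 for TRIB3, 10.9 for CHAC1, 4.47 for SESN2 and 2.59 for VLDLR. By their range over the 6 libraries, ATF4 and PSAT1 stood clear of the genes below them, whereas the ranges of neighbours from DDIT3 down to SESN2 overlapped. The lowest count behind any value was 77, for CHAC1 in vector 2.

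**Figure D1:**
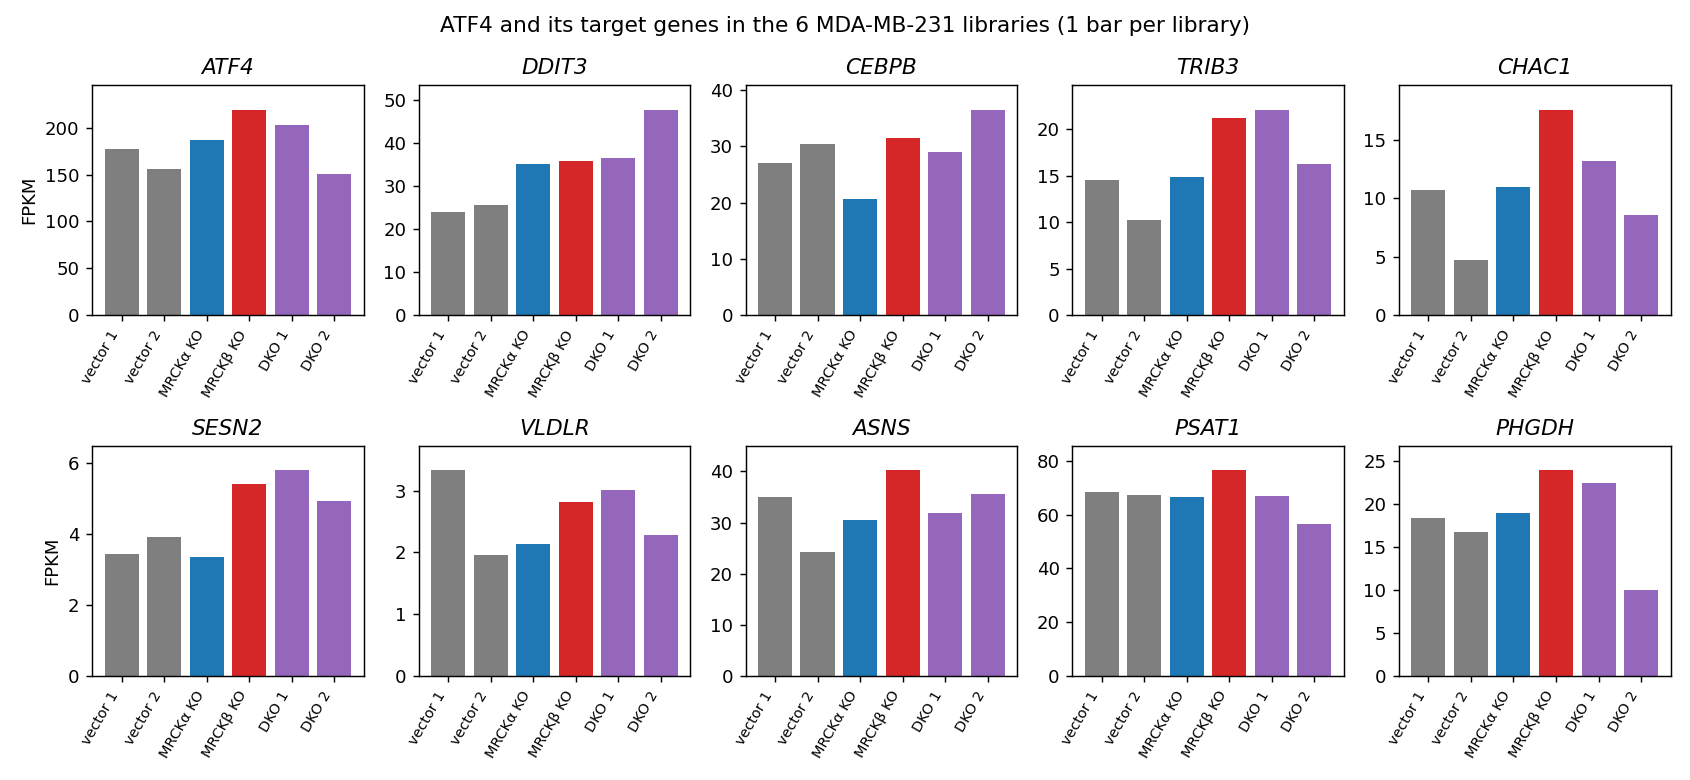
FPKM (vertical axes, from 0) of the 10 genes, with 1 bar for each of the 6 libraries. The red bar of MRCKβ KO is above both grey vector bars in each panel except VLDLR.

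DKO against vector is the only comparison with replicates on both sides. DDIT3, TRIB3 and SESN2 were higher in both DKO libraries than in both vector libraries, with log2 fold changes of 0.73, 0.62 and 0.53, while ATF4 itself overlapped between the groups. None of the 10 passed edgeR's quasi-likelihood test after Benjamini-Hochberg adjustment over all tested genes, where 0 genes (0.0%) passed. At an unadjusted p under 0.05 there were 313 genes by edgeR, and at the adjusted threshold 4 genes by DESeq2. The 3 genes named were the ones of the 10 with an unadjusted p under 0.05, all of them higher, where 1.36% of the tested genes were higher and 1.02% lower at that threshold. Without overlap between the groups, 3 of the 10 were higher in DKO (14.5% of tested genes) and 1, PSAT1, was lower (also 14.5%). The single knockouts and DKO are all set against the same vector libraries, so their differences from vector are not independent.

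The levels of ATF4 (chr22:39519695-39522685, plus strand, GENCODE v29 on GRCh38, as for the other genes) were 177 and 155 FPKM in vector 1 and vector 2, 203 and 150 in DKO 1 and DKO 2, 219 in MRCKβ KO and 187 in MRCKα KO. DKO 1 lay above both vector libraries and DKO 2 below them. The log2 fold change in DKO was 0.06 (SE 0.17, adjusted p = 1.0 by edgeR), and it was -0.18 without DKO 1 and -0.03 without vector 2. The annotation holds 4 pseudogenes of ATF4, and reads shared with them could have been divided between the copies. In these bulk libraries, a change in the share of cells that express a gene and a change in RNA per cell cannot be told apart.

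DDIT3 (chr12:57516588-57521737, minus strand) encodes CHOP, a C/EBP relative that promotes cell death under lasting stress. Its FPKM was 23.9 and 25.6 in vector, 36.4 and 47.8 in DKO, 35.8 in MRCKβ KO and 35.2 in MRCKα KO. Every knockout library was above both vector libraries, and the vector libraries were close together. The mean was 24.8 ± 1.17 (SD, n = 2) in vector and 42.1 ± 8.04 (SD, n = 2) in DKO. By edgeR the log2 fold change was 0.73 (SE 0.17), with an unadjusted p of 0.00488 and an adjusted p of 1.0. Without DKO 2 it was 0.54, with an unadjusted p of 0.0593. The gene overlaps MARS and MBD6 on the opposite strand, and because the strand of the reads is not given in the sources used here, reads from the shared stretch cannot be told apart. It also overlaps AC022506.1 and MIR616 on its own strand, whose reads could not be separated by strand.

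TRIB3 (chr20:362835-397559, plus strand) encodes a pseudokinase that binds ATF4 and CHOP and restrains them. The levels of TRIB3 were 14.5 and 10.2 FPKM in vector, 22.1 and 16.3 in DKO, 21.2 in MRCKβ KO and 14.9 in MRCKα KO. Both DKO libraries and MRCKβ KO lay above the vector libraries, and MRCKα KO lay just above vector 1. The log2 fold change in DKO was 0.62 (SE 0.23, unadjusted p = 0.0332 and adjusted p = 1.0 by edgeR). It was 0.40 without vector 2 (unadjusted p = 0.115) and 0.38 without DKO 1 (unadjusted p = 0.192), and 0.63 by limma with a pseudocount of 0.1 (unadjusted p = 0.0674).

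CEBPB (chr20:50190734-50192689, plus strand) encodes a partner that forms dimers with ATF4. Its FPKM was 27.0 and 30.3 in vector, 28.9 and 36.5 in DKO, 31.4 in MRCKβ KO and 20.7 in MRCKα KO. MRCKα KO was the lowest library and DKO 2 the highest, and the vector and DKO libraries overlapped. The log2 fold change in DKO was 0.17 (SE 0.16), and -0.005 without DKO 2.

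SESN2 (chr1:28259527-28282491, plus strand) encodes Sestrin2, a leucine-binding brake on mTORC1. SESN2 had an FPKM of 3.42 and 3.90 in vector, 5.79 and 4.94 in DKO, 5.41 in MRCKβ KO and 3.35 in MRCKα KO. The DKO and MRCKβ KO libraries were above both vector libraries and MRCKα KO was below them. The log2 fold change in DKO was 0.53 (SE 0.20, unadjusted p = 0.0361 and adjusted p = 1.0 by edgeR). By DESeq2 the log2 fold change was again 0.53, with an unadjusted p of 0.0914. By edgeR it was 0.44 without vector 1 (unadjusted p = 0.103), 0.40 without DKO 1 (unadjusted p = 0.241) and 0.64 without DKO 2 (unadjusted p = 0.0619), so the direction held in each.

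CHAC1 (chr15:40952962-40956519, plus strand) encodes an enzyme that degrades glutathione. CHAC1 stood at 10.7 and 4.75 FPKM in vector, 13.2 and 8.53 in DKO, 17.6 in MRCKβ KO and 10.97 in MRCKα KO. It had the widest range of the 10 genes, 3.70-fold from vector 2 to MRCKβ KO. Its vector libraries differed 2.25-fold, and it was the 1 gene of the 10 with a distance of 2-fold or more within vector (7.1% of tested genes). The log2 fold change in DKO was 0.45 (SE 0.43). It was 1.20 without vector 1, -0.04 without vector 2, 0.08 without DKO 1 and 0.73 without DKO 2. The value thus depends on the libraries used in both groups.

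VLDLR (chr9:2621834-2660053, plus strand), a lipoprotein receptor induced under endoplasmic reticulum stress, was the least abundant of the 10. VLDLR had 3.33 and 1.96 FPKM in vector, 3.01 and 2.29 in DKO, 2.82 in MRCKβ KO and 2.14 in MRCKα KO. All 4 knockout libraries lay between the vector libraries, and the DKO mean and the vector mean were both 2.65 after rounding. CEBPB and VLDLR each overlap an antisense gene, CEBPB-AS1 and VLDLR-AS1, with the same limit on strand as DDIT3.

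The enzymes of amino acid synthesis showed no common shift in DKO. ASNS (chr7:97852118-97872542, minus strand), which makes asparagine, had an FPKM of 35.0 and 24.2 in vector, 31.9 and 35.6 in DKO, 40.2 in MRCKβ KO and 30.4 in MRCKα KO. By FPKM, only MRCKβ KO and DKO 2 reached above the higher vector library. The log2 fold change in DKO was 0.18 (SE 0.20), and -0.07 without vector 2. PHGDH (chr1:119648411-119744226, plus strand), which starts serine synthesis, stood at 18.4 and 16.8 in vector, 22.5 and 9.97 in DKO, 24.0 in MRCKβ KO and 19.0 in MRCKα KO. Here the DKO libraries enclosed the vector libraries. They were 2.25-fold apart, the 1 gene of the 10 with such a distance between DKO 1 and DKO 2 (4.43% of tested genes), and the log2 fold change of -0.13 (SE 0.35) became 0.33 without DKO 2. PSAT1 (chr9:78297143-78330093, plus strand), the next enzyme of serine synthesis, had 68.6 and 67.4 in vector, 66.9 and 56.6 in DKO, 76.5 in MRCKβ KO and 66.5 in MRCKα KO. Both DKO libraries were below both vector libraries, DKO 1 by little, and the log2 fold change was -0.16 (SE 0.13, unadjusted p = 0.274 by edgeR). This fold change was -0.29 without DKO 1 and -0.04 without DKO 2. ASNS and PSAT1 have 4 annotated pseudogenes each, with the same uncertainty as ATF4. ASNS also overlaps AC005326.1 on the opposite strand and AC079781.5 on its own strand, whose reads cannot be told apart from its own where they overlap.

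**Figure D2:**
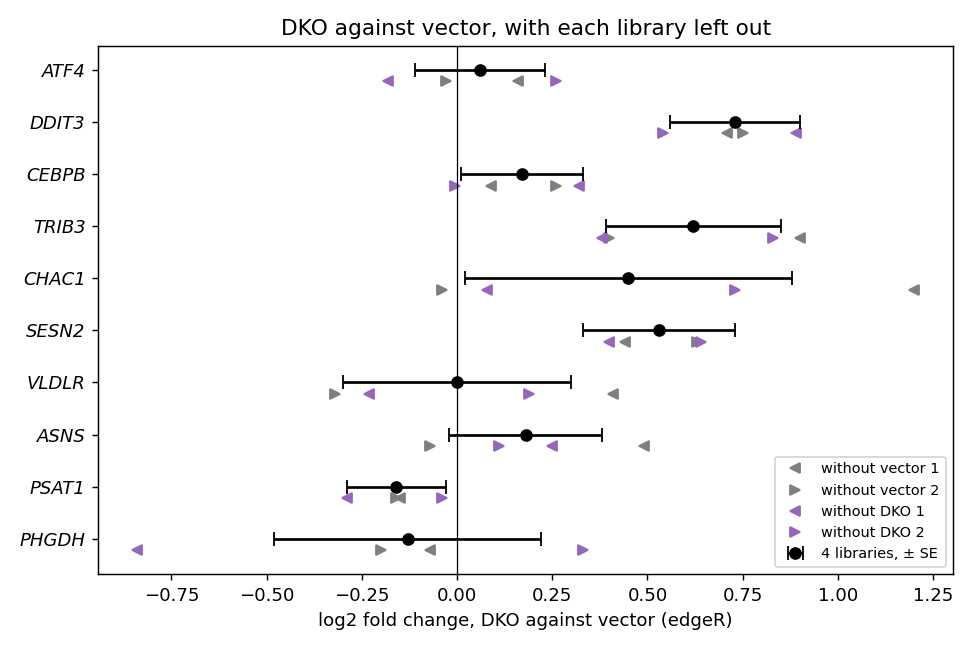
Log2 fold change of each gene in DKO against vector by edgeR (horizontal axis; black points with SE), with triangles for the fits without vector 1, vector 2, DKO 1 or DKO 2. DDIT3, TRIB3 and SESN2 are above 0 in each fit, whereas CHAC1 runs from -0.04 to 1.20 and PHGDH from -0.84 to 0.33.

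The median log2 fold change over the 10 genes in DKO was 0.18, against 0.0 over all tested genes. Without vector 2 it was -0.04 and without vector 1 it was 0.42, so the sign of the median depends on the vector library used.

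The single knockouts have 1 library each and therefore no replicate check, and they were not tested here. MRCKβ KO was high for most of the 10 genes. Measured in CPM (counts scaled to the same library size), it was above both vector libraries in 9 of the 10 (29.8% of tested genes) and below both in 0 (29.3%), with VLDLR between them. It was the highest of all 6 libraries for ATF4, CHAC1, ASNS, PSAT1 and PHGDH, which is 5 of 10 (15.7% of tested genes). MRCKα KO was above both vector libraries in 5 of the 10 (29.9%), namely ATF4, DDIT3, TRIB3, CHAC1 and PHGDH, and below both in 3 (29.3%), namely CEBPB, SESN2 and PSAT1.

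The size of the difference in MRCKβ KO varied by gene. As a ratio of FPKM to the vector mean, CHAC1 was at 2.28, TRIB3 at 1.72, SESN2 at 1.48 and DDIT3 at 1.45. ASNS and PHGDH were both at 1.36, ATF4 was at 1.32, PSAT1 at 1.13, CEBPB at 1.10 and VLDLR at 1.07. The order depends on the vector library, since against vector 2 alone ASNS was at 1.66, VLDLR at 1.44, PHGDH at 1.43 and ATF4 at 1.41, with DDIT3 at 1.40 and SESN2 at 1.39. VLDLR changed direction, with 0.847 against vector 1. Part of the CHAC1 ratio rests on the low vector 2, since it was 1.65 against vector 1 and 3.70 against vector 2. For TRIB3 the ratio was 1.46 against vector 1 and 2.08 against vector 2. The median log2 ratio of the 10 to the vector mean, on FPKM with a pseudocount of 0.1 as for the lists, was 0.44 in MRCKβ KO and 0.08 in MRCKα KO. In MRCKβ KO it was 0.34 against vector 1 alone and 0.50 against vector 2 alone. In MRCKα KO it was 0.0 and 0.22, so that median rests on vector 2.

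In MRCKβ KO the intervals for counting error lay above 0 against both vector libraries for each gene except CEBPB and VLDLR. The 95% counting interval of the log2 ratio of ATF4 in MRCKβ KO to vector 1 ran from 0.23 to 0.37. That of DDIT3 ran from 0.29 to 0.77, and that of CEBPB to vector 2 from -0.11 to 0.20. In MRCKα KO, the interval of ATF4 to vector 1 ran from -0.02 to 0.13 and that of TRIB3 from -0.17 to 0.25. The intervals to vector 1 also held 0 for CHAC1 (-0.29 to 0.31) and PHGDH (-0.17 to 0.24). Of the genes above both vector libraries in MRCKα KO, DDIT3 was thus the only one whose intervals lay above 0 against both, from 0.22 to 0.71 and from 0.18 to 0.67. Of those below both, CEBPB was the only one whose intervals lay below 0, since SESN2 (-0.41 to 0.33 and -0.60 to 0.12) and PSAT1 (-0.16 to 0.05 and -0.15 to 0.06) held 0 against vector 1 and vector 2. Such intervals hold no spread between cultures, and between the vector libraries themselves TRIB3 differed by 0.50 (0.27 to 0.73) on the same scale.

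**Figure D3:**
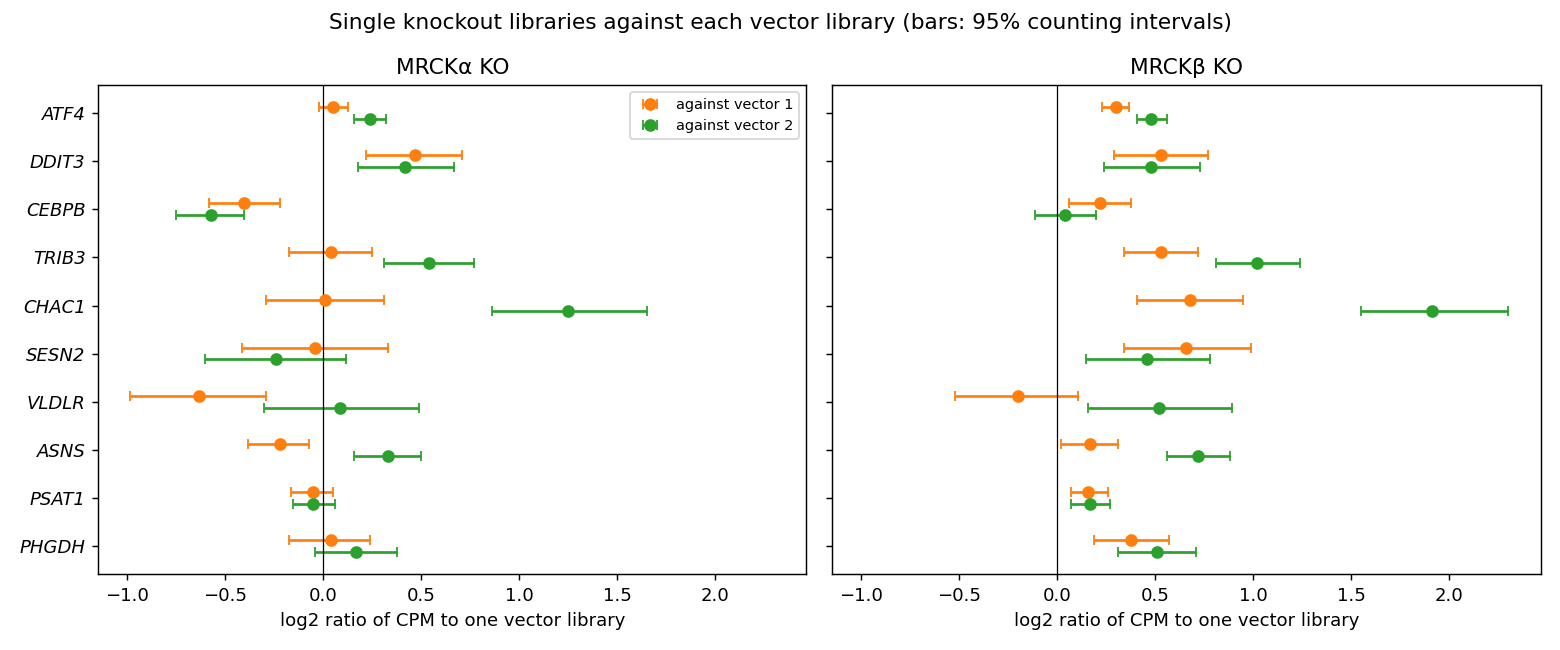
Log2 ratio of CPM in MRCKα KO (left) and MRCKβ KO (right) to vector 1 and to vector 2, with 95% counting intervals that hold no spread between cultures. In MRCKβ KO both points are above 0 for each gene except VLDLR, and in MRCKα KO both points of CEBPB are below 0.

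The study's own rule on FPKM leaves out genes more than 2-fold apart between replicates, averages the rest and takes a change of at least 2-fold. The study also left out poorly expressed genes, a step not applied here because its limit is not given in the sources used here, so the shares below include genes of low level. None of the 10 passed it in MRCKα KO (4.42% of the genes with a value), in MRCKβ KO (3.53%) or in DKO (1.78%). CHAC1 has no value by the rule because its vector libraries are too far apart, and PHGDH has none in DKO.

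The pathway was also described by lists. These also hold the 10 genes except ATF4, so the counts and medians of such lists include those target genes. DDIT3, CEBPB and TRIB3 are among the bZIP partners and feedback factors, and ATF4 is in none of the lists. ASNS, PSAT1 and PHGDH are among the genes of amino acid synthesis. CHAC1, SESN2 and VLDLR are among the mTORC1 brakes and other stress targets. The eIF2α kinases and the regulatory subunits of its phosphatase had a median log2 fold change of 0.08 in DKO, with 0 of 6 genes at an unadjusted p under 0.05 (1.36% of all tested genes higher and 1.02% lower). In MRCKβ KO 3 of the 6 were above both vector libraries (29.8% of all tested genes) and 1, EIF2AK2, was below (29.3%). PPP1R15A, the stress-induced phosphatase subunit GADD34, was at 99.0 and 133 FPKM in vector, 144 and 168 in DKO, 123 in MRCKβ KO and 132 in MRCKα KO. It was above both vector libraries in both DKO libraries (log2 fold change 0.41, SE 0.17, unadjusted p = 0.0544 and adjusted p = 1.0 by edgeR). EIF2AK3 (PERK) was at 6.04 and 3.81 in vector, 7.64 and 5.48 in DKO, 6.78 in MRCKβ KO and 7.42 in MRCKα KO, so DKO overlapped vector (log2 fold change 0.43, SE 0.28) and each single knockout was above both vector libraries. The constitutive subunit PPP1R15B and the kinases EIF2AK1 (HRI), EIF2AK2 (PKR) and EIF2AK4 (GCN2) had log2 fold changes between 0.01 and 0.09.

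Among the bZIP partners and feedback factors, 3 of 8 genes had an unadjusted p under 0.05 in DKO, all higher, where 1.36% of all tested genes were, and the median was 0.24. Besides DDIT3 and TRIB3 this was ATF3, a stress-induced bZIP factor. ATF3 had an FPKM of 4.56 and 3.15 in vector, 9.84 and 8.95 in DKO, 8.85 in MRCKβ KO and 10.96 in MRCKα KO. All knockout libraries were well above the vector libraries, with a log2 fold change in DKO of 1.28 (SE 0.25, unadjusted p = 0.00198 and adjusted p = 1.0 by edgeR). In MRCKβ KO 7 of the 8 were above both vector libraries (29.8% of all tested genes), and ATF5 was below both at 18.2, against 25.3 and 32.4 in vector.

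The tRNA synthetases were uniform in direction in MRCKβ KO. All 12 were above both vector libraries there (29.8% of all tested genes), with FPKM ratios to the vector mean from 1.06 to 1.5 and a median log2 ratio of 0.17, and 7 were so in MRCKα KO (29.9%) with a median of 0.12. In DKO the median was 0.07, and 1 of 12 had an unadjusted p under 0.05 and was higher (1.36% of all tested genes). This was YARS, the tyrosyl-tRNA synthetase, with 69.0 and 49.7 FPKM in vector, 80.7 and 84.2 in DKO, 88.8 in MRCKβ KO and 75.2 in MRCKα KO (log2 fold change 0.45, SE 0.17, unadjusted p = 0.0352 and adjusted p = 1.0 by edgeR). AARS, for alanine, had 65.6 and 52.2 in vector, 74.1 and 69.3 in DKO, 80.7 in MRCKβ KO and 62.4 in MRCKα KO. MARS, for methionine, had 51.2 and 48.4 in vector, 58.8 and 58.3 in DKO, 55.5 in MRCKβ KO and 50.2 in MRCKα KO. In both genes DKO did not overlap vector, and their unadjusted p was 0.116 and 0.0869 by edgeR. GARS, for glycine, was the most abundant of the list at 161 and 138 in vector, 188 and 162 in DKO, 193 in MRCKβ KO and 179 in MRCKα KO. Its DKO and vector libraries came close to each other, and by CPM they overlapped.

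In the remaining ATF4 lists the median log2 fold change in DKO was 0.11 for amino acid synthesis and folate steps, 0.09 for amino acid transporters and 0.06 for mTORC1 brakes and other stress targets. Without vector 1 these medians were 0.19, 0.24 and 0.32, and without vector 2 they were -0.02, 0.07 and -0.24. The sign for synthesis and for stress targets thus depends on the vector library. In MRCKβ KO the median log2 ratios of these lists were 0.30, 0.17 and 0.26. Genes below both vector libraries there numbered 1, 2 and 2 in the same order (29.3% of all tested genes). Of 11 tested genes of amino acid synthesis and folate steps, 8 were above both vector libraries in MRCKβ KO (29.8% of all tested genes), and 0 had an unadjusted p under 0.05 in DKO. Of 10 amino acid transporters these counts were 6 and 0, and of 9 mTORC1 brakes and other stress targets 5 and 2. Over all tested genes 1.36% were higher and 1.02% lower at this p, so few or none are due in lists of this size. The 2 were SESN2 and VEGFA, an angiogenic factor, which was lower in DKO (log2 fold change -0.47, SE 0.16, unadjusted p = 0.0266 and adjusted p = 1.0 by edgeR). VEGFA had an FPKM of 56.9 and 72.9 in vector, 47.5 and 51.5 in DKO, 57.3 in MRCKβ KO and 39.9 in MRCKα KO. CTH, which makes cysteine, was at 16.2 and 9.14 in vector, 15.8 and 16.7 in DKO, 17.8 in MRCKβ KO and 13.7 in MRCKα KO. CTH lay between the vector libraries in MRCKα KO, and its DKO libraries lay close to vector 1. PSPH, the last enzyme of serine synthesis, was at 17.0 and 18.7 in vector, 20.2 and 21.7 in DKO, 18.1 in MRCKβ KO and 18.4 in MRCKα KO. SHMT2, the mitochondrial serine hydroxymethyltransferase and the most abundant gene of its list, overlapped between DKO and vector and was highest in MRCKβ KO at 104. Among the transporters, SLC43A1, SLC1A4 and SLC7A1 did not overlap between DKO and vector, with log2 fold changes of 0.45, 0.21 and 0.12 and unadjusted p of 0.179, 0.259 and 0.325 by edgeR. SLC7A5, the abundant light chain of the leucine transporter, was at 179 and 180 in vector, 185 and 180 in DKO, 162 in MRCKβ KO and 147 in MRCKα KO. SLC7A5 was thus below both vector libraries in each single knockout, unlike most of its list in MRCKβ KO. EIF4EBP1, a repressor of translation, overlapped between DKO and vector at 85.7 to 101 in DKO and 74.5 to 96.1 in vector.

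The chaperone branch of the unfolded protein response, which depends on XBP1 and ATF6, was set beside these lists. Its median log2 fold change was -0.07 in DKO, with 0 of 15 genes at an unadjusted p under 0.05 (1.36% of all tested genes higher and 1.02% lower). Leaving out vector 1 moved this median to -0.2, and leaving out vector 2 moved it to 0.06. In the latter fit the branch stood above synthesis (-0.02), stress targets (-0.24) and tRNA synthetases (0.04). It stayed below the transporters (0.07), the eIF2α kinases and phosphatase subunits (0.12) and the bZIP partners and feedback factors (0.25). The rank of the branch among the lists thus rests on the vector libraries used. Of the 15 genes, 6 were above both vector libraries in MRCKβ KO (29.8% of all tested genes). HERPUD1, a component of endoplasmic reticulum degradation, was at 29.1 and 19.1 FPKM in vector, 42.6 and 30.4 in DKO, 49.5 in MRCKβ KO and 41.2 in MRCKα KO. All knockout libraries of HERPUD1 were above both vector libraries (log2 fold change in DKO 0.58, SE 0.25, unadjusted p = 0.0596 and adjusted p = 1.0 by edgeR). DNAJB9 was higher and SDF2L1 lower in DKO without overlap, with log2 fold changes of 0.34 and -0.31 and unadjusted p of 0.141 and 0.262 by edgeR. XBP1, the factor itself and chosen after its values were seen, was at 34.8 and 36.9 FPKM in vector, 41.7 and 42.2 in DKO, 45.2 in MRCKβ KO and 42.7 in MRCKα KO. XBP1 was thus above both vector libraries in every knockout library (log2 fold change in DKO 0.21, SE 0.12, unadjusted p = 0.149 and adjusted p = 1.0 by edgeR). CALR, the most abundant chaperone of the list, stood between 921 and 1097 FPKM in all libraries. The ATF4 lists without this branch were also joined, together with ATF4 itself, which is in none of them. With the 10 genes left out, this joined set held 47 tested genes. Of these, 33 were above (29.8% of all tested genes) and 7 below (29.3%) both vector libraries in MRCKβ KO. In MRCKα KO 18 were above (29.9%) and 5 below (29.3%). XPOT, from the list of mTORC1 brakes and other stress targets, is counted among the genes above both vector libraries in each single knockout.

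**Figure D4:**
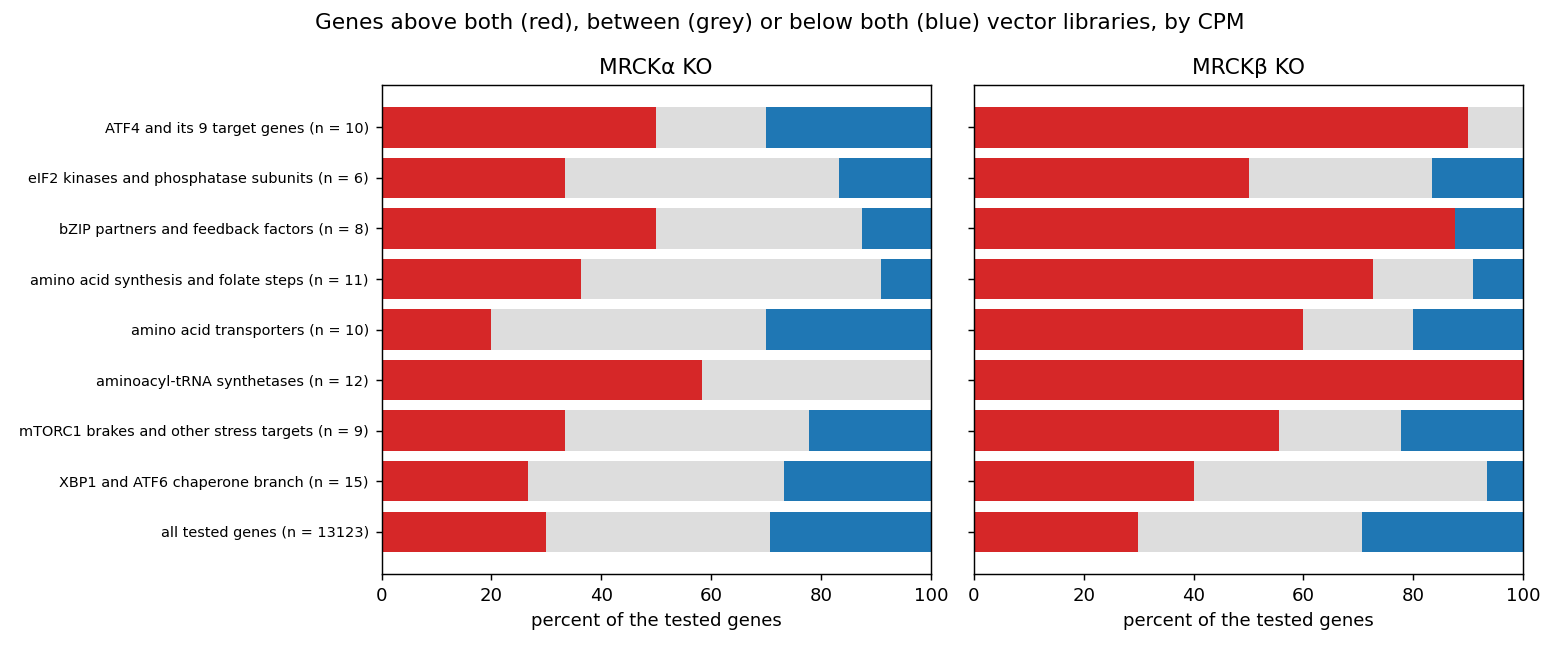
Percent of the tested genes of each list (horizontal axis) above both vector libraries (red), between them (grey) or below both (blue) in MRCKα KO (left) and MRCKβ KO (right), by CPM. All 12 tRNA synthetases are in the red class in MRCKβ KO, where 29.8% of all tested genes are.

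Levels of the 10 genes also differed between libraries of the same genotype. The median log2 ratio of vector 2 to vector 1 was -0.16 over the 10 genes and -0.01 over all tested genes, and that of DKO 2 to DKO 1 was -0.31 and 0.01. Markers of other cell states differed between the same libraries. The summed FPKM of 5 fibroblast markers was 10.4 and 3.73 in vector 1 and vector 2, 5.87 and 3.78 in DKO 1 and DKO 2, 7.09 in MRCKβ KO and 4.44 in MRCKα KO. In each library 2 of the 5 had an FPKM of at least 1, PDGFRB was the most abundant in vector 1 at 5.90, and the defining markers DCN and LUM did not exceed 0.29 in any library. LUM was at 0 in vector 2, MRCKβ KO and DKO 2, and DCN in vector 2. The sum of 5 mesenchymal markers was 1770 and 2360 in vector, 1770 and 2190 in DKO, 1860 in MRCKβ KO and 1770 in MRCKα KO, with VIM the most abundant. The sum of 5 epithelial markers was 461 and 403 in vector, 405 and 314 in DKO, 454 in MRCKβ KO and 403 in MRCKα KO, with none at 0 and KRT8 the most abundant except in DKO 2, where KRT18 was. KRT19 among them was at 60.4 and 28.9 in vector, 48.1 and 21.5 in DKO, 57.5 in MRCKβ KO and 62.2 in MRCKα KO. Their part in the levels of the ATF4 genes was not tested.

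The genes whose profile over the 6 libraries was most like the median profile of the 10, among 4103 genes compared, were ATP6V0A1, LITAF, GIPC1, LTBR and SRC. The root mean square difference from that profile, in centred log2 CPM, was 0.0309 for ATP6V0A1 and 0.0556 for SRC. For ATF4 itself it was 0.0993 and for CHAC1 0.418. The median profile was highest in MRCKβ KO at 0.29 and lowest in vector 2 at -0.27.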

How the data were processed

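RNA was sequenced as single-end reads on the BGISEQ-500 platform. Per the submitters' processing notes, Bowtie2, HISAT, RSEM and the build GRCh38.p11 were used; versions and strand are not given in the sources used here. The authors deposited expected counts per gene, which need not be whole, and FPKM values rounded to 2 decimals. Expected counts, fractional for genes such as TRIB3 and CEBPB, were rounded to whole numbers. DKO was compared with vector by edgeR 4.0.16 (filterByExpr, TMM, glmQLFit, glmQLFTest), with the p-values adjusted over all 13123 tested genes. SE is the absolute log2 fold change divided by the root of F. Such p-values measure only the spread between these libraries. An exact permutation test of 2 against 2 libraries cannot go below 0.33 and was not used. Overlap between groups was judged on CPM (counts scaled to library size) after TMM. Counting intervals are exact (Clopper-Pearson, 95%) and cover counting error only. In the 2-fold rule, a ratio of exactly 2 counts as a change. DESeq2 1.42.0 and limma 3.58.1 served as alternatives.

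The members and lists were chosen with earlier results of these data known. Named genes are the 10, the targeted genes, the eIF2α kinases and phosphatase subunits, the abundant and the most changed non-overlapping genes of each list, and the 5 most alike in profile. CDC42BPA, CDC42BPB, XPOT and the synthetases with a promoter match are named for their identity, and ATF5 was chosen after its values were seen.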

Additional observations from a re-analysis of the deposited data

Results flagged for a closer look

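CEBPB, SESN2 and PSAT1 lay below both vector libraries in MRCKα KO and above both in MRCKβ KO. The log2 FPKM of MRCKβ KO minus that of MRCKα KO was 0.60 for CEBPB, 0.69 for SESN2 and 0.20 for PSAT1. By counting error, the intervals of MRCKα KO held 0 against both vector libraries for SESN2 and PSAT1, and that of CEBPB in MRCKβ KO held 0 against vector 2 (-0.11 to 0.20). Each single knockout has 1 library and both share the vector libraries, and the difference was not tested.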

How the results depend on the processing

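With each library left out in turn, where a lone library is assumed to vary like the others, genes past the adjusted threshold in DKO numbered 0 to 5, those at an unadjusted p under 0.05 numbered 135 to 1154, and of the 10 genes 1 to 4 had such a p. DESeq2 called 4 genes. The replicate block called 5 genes and gave 796 at an unadjusted p under 0.05; vector and DKO share replicate numbers, but the numbers pair nothing in the labels, and the correlation of their deviations across genes was 0.302. With the replicate block 4 of the 10 genes had such a p, and CHAC1 was at 0.51 (SE 0.21, unadjusted p = 0.04 by edgeR). Non-overlapping genes among the 10 numbered 4 on CPM, 4 on FPKM and 7 with any 1 library left out, where fewer libraries make overlap less likely and 55.0% to 72.4% of all tested genes did not overlap. The leave-outs of this count, the alternatives to the count of the 10 at an unadjusted p under 0.05, the FPKM version of the single knockout counts and the single knockout medians against each vector library were chosen after seeing the data. The leave-out log2 fold changes changed sign for ATF4 (-0.18 to 0.26), CEBPB (-0.005 to 0.32), CHAC1 (-0.04 to 1.20), VLDLR (-0.32 to 0.41), ASNS (-0.07 to 0.49) and PHGDH (-0.84 to 0.33). VLDLR, at -0.002, was 0.02 with library size alone, 0.02 with the replicate block, and 0.04 and 0.02 by limma with pseudocounts of 0.1 and 1. Genes past the 2-fold rule in MRCKα KO, MRCKβ KO and DKO numbered 569, 455 and 218. They numbered 45, 11 and 10 with a pseudocount of 1, 163, 94 and 48 where the mean FPKM reached 1 in either group, and 1418, 1266 and 1254 without the replicate exclusion. In DKO a pseudocount of 0.1 gave 117. With 1 vector library they numbered 1450 to 1576, 1204 to 1650 and 689 to 704, where no gene could be left out for a distance between vector libraries. The cause of the other shifts was not tested. On FPKM in place of CPM, MRCKβ KO was again above both vector libraries in 9 of the 10 genes and MRCKα KO in 5. With 1 library left out, the median log2 fold change in DKO ran from 0.25 to 0.47 for the bZIP partners and feedback factors. It ran from 0.04 to 0.15 for the tRNA synthetases and from 0.1 to 0.16 for the eIF2α kinases and phosphatase subunits.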

Other observations

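Some genes of the lists, chosen after their values were seen, varied widely between libraries of 1 genotype. GDF15, a secreted stress cytokine, had an FPKM of 6.25 and 0.64 in vector, 5.97 and 3.56 in DKO, 10.6 in MRCKβ KO and 5.14 in MRCKα KO, with 8 counts in vector 2. SLC38A2, an amino acid transporter, had 152 and 66.5 in vector, 135 and 86.3 in DKO, 164 in MRCKβ KO and 128 in MRCKα KO. DDIT4, an inhibitor of mTORC1, had 28.98 and 14.8 in vector, 22.1 and 15.4 in DKO, 34.6 in MRCKβ KO and 15.9 in MRCKα KO. In each of these 3 genes MRCKβ KO was the highest library, and library 1 was above library 2 in both vector and DKO. The same order of library 1 above library 2 in both groups was found in 6 of the 10 ATF4 genes and in 31.1% of all tested genes. HSPA5, the main chaperone of the endoplasmic reticulum, had 183 and 191 in vector, 222 and 164 in DKO, 274 in MRCKβ KO and 218 in MRCKα KO, so its DKO libraries lay on either side of vector.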
